A study of Mus musculus with 7 samples.

Results

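In the gastric corpus of Atp4b-DTR mice, 92 of 22180 measured genes had a log2 signal at least 1 below that of the control array, a fall to 50% of the signal or less, on each of the 6 arrays taken after diphtheria toxin. These persistently low genes were chosen by those differences. Each was read from a probe set annotated to 1 gene symbol, the one with the highest mean where a gene had several. In all, 119 genes (0.537% of 22180) met the threshold, and 27 genes (0.122%) lay at least 1 above the control on all 6 toxin arrays. Of the 119, the rule left out 7 predicted genes by name and 20 further named genes. Since the differences from the control chose the genes, they are given as a description with no test.

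Expression was measured on 7 single-channel arrays, 1 per sample, from corpus tissue of Atp4b-DTR mice aged 8 to 12 weeks. All groups carried the same transgene, in which the promoter of Atp4b, a subunit of the gastric proton pump, is used to place a diphtheria toxin receptor on parietal cells. Mice received 225 ng of diphtheria toxin on each of 3 days, or saline, and toxin tissue was taken 24 h (1 array), 36 h (1), 48 h (2) or 72 h (2) after the last dose. The saline control was a single array, so any trait of that 1 sample enters every difference given here, and animals behind each sample are not described further. Values for toxin arrays are listed below in the order 24 h, 36 h, 48 h replicate 1, 48 h replicate 2, 72 h replicate 1 and 72 h replicate 2.

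The corpus gland holds acid-secreting parietal cells, pepsinogen-secreting chief cells, mucous neck and pit cells and hormone cells, around a stroma of vessels, fibroblasts and smooth muscle. Parietal cells are among the most mitochondria-rich cells of the body and also release growth factors that act on neighbouring cells. Diphtheria toxin stops protein synthesis in cells that carry its receptor. In bulk tissue, fewer cells of a type and less RNA per cell cannot be told apart.

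The labelled tissue and treatment were checked on marker genes. Atp4b was at 12.94 on the control array and 10.68, 12.33, 11.66, 12.39, 12.65 and 12.92 on the toxin arrays, so its signal lay closest to the control at 72 h. Genes of the squamous forestomach, which borders the corpus, differed between arrays. Krt4, a keratin of that epithelium, had a control signal of 7.79 and was at -1.63, -0.83, -3.58, -0.04, 0.72 and -3.67 from the control, and Krtdap was at -0.63, 0.19, -3.31, 0.59, 0.74 and -3.20. Both were thus low on the first 48 h and the second 72 h array, while Krt14 stayed between 4.501 and 4.70 on all 7 arrays. Over the 13 measured genes of the list, the summed linear signal was 1310 on the control and 1182 to 2388 on the toxin arrays. This sum leans on Sprr1a, the brightest of them on the control at 9.20, which lay 0.53 to 1.17 above it on the toxin arrays. Median differences of the 13 genes by array were -0.02, 0, -0.32, 0.24, 0.43 and -0.31. Krt4 lay above the control on the first 72 h array, where the rule required all 92 genes to be low. Their low values there are thus a condition of choice and not a finding. Of the 92, 23 (25.0%) were lower on the first 48 h and second 72 h arrays than on the other array of each pair, against 19.7% of all genes, Mug1, Azgp1, Cckar and Cldn8 among them. The part of forestomach tissue in the values was not tested. The RNA that silences an X chromosome, Xist, had a signal of 8.13 in the control sample and 9.17 at 24 h but of 2.70 to 3.27 in the other 5 samples, so the 24 h array alone shared the sex pattern of the control. On the other 5 arrays, sex and toxin cannot be told apart in a difference from the control. Of the 92 genes, 4 were X-linked (Capn6, Prps2, Asb11 and Kctd12b) and 0 Y-linked. The 4 were 0.445% of the 899 measured X-linked genes, where the 92 were 0.415% of all genes. Only 17 Y-linked genes were measured. The rule required each of these X-linked genes, as every member, to lie at least 1 below the control on the 24 h array too. Their differences there were -1.55, -1.77, -1.498 and -1.23 for Capn6, Prps2, Asb11 and Kctd12b, and the part of sex was not tested.

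The promoters of the 3 genes with the lowest mean difference are shown because these genes lay furthest below the control. They are the 250 bases upstream of the start, from RefSeq on build GRCm38.p6, which matched 62 of the 92 genes, read 5′ to 3′ on the strand of the gene. Prnd has 2 starts in the table and the one listed first is shown. Capitals mark matches, on either strand, to 8 motifs. These were AAGGTCA (the core element of oestrogen-related receptors), CACGTG (E-box), TGANTCA (AP-1), GACGTG (hypoxia core), TGTTTAC (forkhead), TATAAA (the core promoter box), CCAAT (the CCAAT box) and GGGCGG (GC box).
Gpr155, chr2:73386481-73386730, minus strand: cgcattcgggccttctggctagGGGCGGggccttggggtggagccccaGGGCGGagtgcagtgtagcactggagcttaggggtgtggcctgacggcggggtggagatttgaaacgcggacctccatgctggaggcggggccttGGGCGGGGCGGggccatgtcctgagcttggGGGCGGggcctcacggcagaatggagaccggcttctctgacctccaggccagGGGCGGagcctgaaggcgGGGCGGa
Prnd, chr2:131950611-131950860, plus strand: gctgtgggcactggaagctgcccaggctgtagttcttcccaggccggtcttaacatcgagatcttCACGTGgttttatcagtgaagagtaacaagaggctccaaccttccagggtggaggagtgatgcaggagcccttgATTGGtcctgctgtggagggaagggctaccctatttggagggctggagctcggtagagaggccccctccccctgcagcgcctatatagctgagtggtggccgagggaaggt
Lrrn1, chr6:107529476-107529725, plus strand: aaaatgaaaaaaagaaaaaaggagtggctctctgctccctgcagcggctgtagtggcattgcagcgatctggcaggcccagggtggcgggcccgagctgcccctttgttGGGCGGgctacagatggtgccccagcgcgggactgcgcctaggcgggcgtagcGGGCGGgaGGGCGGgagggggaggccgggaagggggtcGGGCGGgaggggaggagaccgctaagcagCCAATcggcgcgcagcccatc
Gpr155 held 7 GC boxes, Lrrn1 held 4 GC boxes and 1 CCAAT box, and Prnd held 1 E-box and 1 CCAAT box read on the reverse strand. Over the 62 matched genes, 46.8% of promoters held a CCAAT box against 34.5% of the 27025 genes in the table, and 43.5% held a GC box against 32.9%. The E-box was in 6.45% against 6.05%, the AP-1 motif in 4.84% against 6.87%, the hypoxia core in 4.84% against 5.18% and TATAAA in 8.06% against 13.0%. The core element of oestrogen-related receptors and the forkhead motif had no match in these windows in the 62 genes, against 4.05% and 3.09% of all. Median GC content was 55% in the 62 windows and 52% in all. A match describes letters, not a binding site.

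Of the 92 genes, 91 code for proteins, and the exception is the microRNA gene Mirlet7f-1. Its mature products are shown because the let-7 family is grouped by its seed. Seeds (bases 2 to 8) are in capitals, and both come from RefSeq on GRCm38.p6.
mmu-let-7f-5p, chr13:48537889-48537910, minus strand: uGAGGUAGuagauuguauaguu
mmu-let-7f-1-3p, chr13:48537833-48537854, minus strand: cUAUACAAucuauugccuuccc
The seed of let-7f-5p is shared by 11 mature names in the table. Mirlet7f-1 had a log2 signal of 5.11 on the control array and 2.47, 3.30, 3.44, 3.12, 3.38 and 3.31 on the toxin arrays. Its level after toxin was thus in the dim part of the array, and a second probe set of the gene was dimmer still, at 3.37 on the control and with a mean difference of -0.71. The other 10 let-7 genes on the array had mean differences between -0.40 and 0.44, and none of them met the threshold. The sources used here do not say which part of the precursor either probe set covers.

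The 92 genes lay below the control by a mean of 1.09 to 3.74 over the 6 toxin arrays, with a median mean difference of -1.55. The mean was -2 or lower in 17 genes, between -2 and -1.5 in 36 and above -1.5 in 39. The 6 arrays had median differences of -1.52, -1.76, -1.59, -1.55, -1.49 and -1.38, in the order given above, against 0 for all genes on each array. The lowest of the 6 toxin values fell on the 36 h array in 32 genes, at 24 h in 20, on the 48 h arrays in 14 and 17, and on the 72 h arrays in 7 and 2. The highest fell on the second 72 h array in 37 genes, at 24 h in 23 and at 36 h in 1. Taken array by array, 1.67%, 1.61%, 1.58%, 1.76%, 1.28% and 1.03% of all genes lay at least 1 below the control. The number of members depended on the second 72 h array, and without it 143 genes met the rule.

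**Figure D1:**
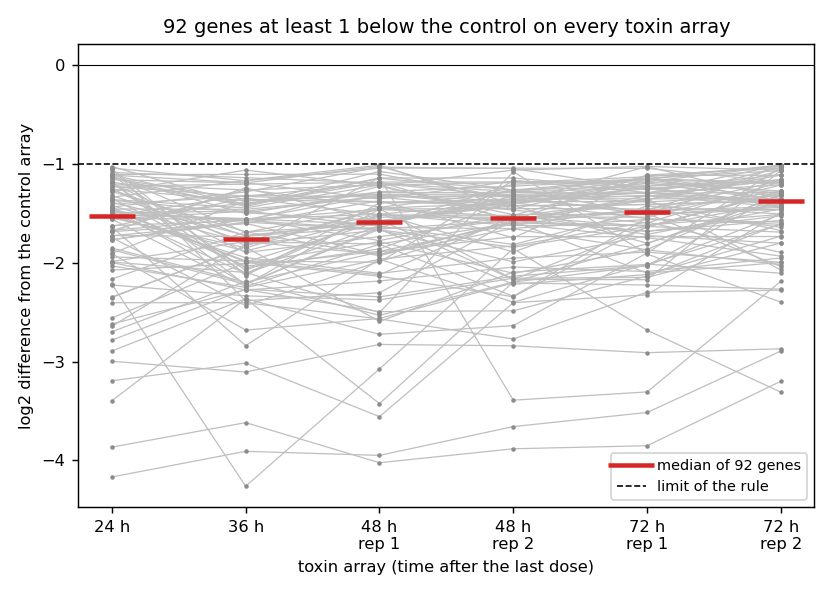
Each grey line is 1 of the 92 genes, with its log2 difference from the control array (vertical axis) on each toxin array (horizontal axis); red bars are medians and the dashed line is the threshold of -1. The median was lowest on the 36 h array (-1.76) and highest on the second 72 h array (-1.38).

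Levels were not uniform within the list. The control value ran from 5.11 to 11.80 on the log2 scale, with a median of 7.78. In 25 of the 92 genes the mean over the toxin arrays lay below 5.16, the median level of all genes on the array. Among these 25 are Prnd (4.44), C4bp (4.54), Gabra4 (4.26), Kcne1 (4.23) and Atp13a4 (4.23). Slc5a8 (4.63), Slc2a12 (4.65), Stc1 (4.53), Amh (4.65) and Ly6c2 (4.37) are too. Their toxin means are thus in the dim part of the array. Spread over the 6 toxin arrays was small in many: the range was under 0.5 in 37 genes, at least 1 in 17 and 0.58 in the median, against 0.33 over all genes. The 2 arrays of a pair differed by a median of 0.19 at 48 h and 0.15 at 72 h, against 0.11 and 0.10 over all genes. In 7 genes the 48 h arrays had an identical value, and in 2 genes the 72 h arrays did.

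For description, members alone were sorted into groups by role, and 21 were placed in none. The group sizes have no counterpart over all genes. Receptors and signalling proteins made up 16 of the 92 genes, with a median mean difference of -1.56. Gpr155, a lysosomal membrane protein that senses cholesterol, had the lowest mean of the whole list. Its log2 signal was 9.17 on the control array and 5.31, 5.55, 5.15, 5.29, 5.32 and 5.97 on the toxin arrays. The toxin arrays lay within 0.83 of each other, and their distance from the control is what chose and ranked the gene. The low value rests on 1 of 3 probe sets. The others had mean differences of -0.04 and -0.37 from control values of 4.62 and 5.28, and the mean of the 3 probe sets gave -1.38. Gpr155 is also on the list of parietal cell genes.

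Lrrn1, a leucine-rich repeat membrane protein, had 7.33 on the control array and 4.33, 4.22, 4.502, 4.49, 4.42 and 4.46 on the toxin arrays. Its 6 toxin values spanned 0.28, with no order by time. They all lay below 5.16, the median level of all genes, and thus in the dim part of the array. Rasgrp3, an exchange factor that activates Ras and Rap GTPases, had 9.52 on the control array and 6.33, 6.51, 5.97, 7.12, 7.20 and 8.04 on the toxin arrays. It was lowest on the first 48 h array and highest on the second 72 h array, where it lay 1.49 below the control.

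Several receptors of hormones and local mediators of gastric secretion were in the list. Adcyap1r1, the receptor of the neuropeptide PACAP, had 7.92 on the control array and 5.51, 5.51, 5.35, 5.15, 5.62 and 5.64 on the toxin arrays. Cckar, the receptor with which cells sense cholecystokinin, had 10.12 on the control array and 8.65, 8.14, 8.12, 8.95, 8.83 and 8.74 on the toxin arrays. Ptger3, a receptor of prostaglandin E2, had 7.89 on the control array and 6.47, 6.09, 6.38, 6.27, 6.27 and 6.38 on the toxin arrays. The distance of these 3 genes from the control is a condition of the rule. Among themselves, the toxin arrays had a spread from 0.38 (Ptger3) to 0.83 (Cckar). Hnmt, the enzyme that inactivates histamine by methylation, was at -1.11, -1.11, -1.10, -1.35, -1.14 and -1.30 from the control. Calcrl, the core subunit of the receptors of calcitonin gene-related peptide and adrenomedullin, was at -1.09, -1.14, -1.19, -1.28, -1.25 and -1.16. The 6 toxin values spanned 0.25 in Hnmt and 0.20 in Calcrl.

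The other genes of that kind did not move as a block. In a list of 24 receptors and enzymes of gastric secretory control, put together after the members were known, 23 were measured, 5 met the rule and 11 lay below the control on all 6 toxin arrays. The median of the mean differences of the 23 was -0.14, and 22.6% of all genes lay below the control on all 6. The 5 members are among the 11 by the rule and also enter this median. Neither value therefore describes the other genes alone. The histamine receptor Hrh2 missed the rule on the second 72 h array, with differences of -2.02, -1.17, -1.40, -1.33, -1.33 and -0.37. The PACAP and VIP receptor Vipr2 was at -0.87, -0.92, -0.74, -0.85, -1.11 and -1.07. The gastrin receptor Cckbr was at -0.78, -0.24, -0.79, -0.88, -0.52 and -0.40. The receptor of glucagon-like peptide 1, Glp1r, was at -0.06, -0.72, -0.26, 0.20, 0.11 and -0.11, on both sides of the control.

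Growth factor signalling was represented by Bmpr1b, a type 1 receptor of bone morphogenetic proteins, which had 7.63 on the control array and 5.28, 5.79, 5.03, 5.53, 5.61 and 6.02 on the toxin arrays. Sostdc1, a secreted antagonist of bone morphogenetic proteins and Wnt, had 7.57 on the control array and 5.72, 5.38, 5.68, 5.84, 5.84 and 5.84 on the toxin arrays. The first varied by 0.98 over the toxin arrays and the second by 0.46. Stk32b, a protein kinase, had a mean difference of -1.97, and Gabra4, a subunit of GABA-gated chloride channels, of -1.98. The remaining signalling genes were Il17re, Plcb4, Ppp3cc, Ppp2r1b, Rasd1 and Nrbp2, with mean differences between -1.48 and -1.20.

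Secreted and cell-surface proteins were the largest of these groups, with 24 genes and a median mean difference of -1.56. Prnd, which codes for the prion-like protein doppel, had 8.13 on the control array and 3.96, 4.22, 4.18, 4.47, 4.61 and 5.23 on the toxin arrays. Its values were highest on the 2 arrays of 72 h. A second probe set of Prnd was at 2.78 on the control with a mean difference of 0.11, and the mean of both probe sets gave -1.79. Mug1, a protease inhibitor of the alpha-2-macroglobulin family, had 9.71 on the control array and 7.49, 5.45, 6.63, 7.85, 7.03 and 6.399 on the toxin arrays. The toxin arrays of Mug1 differed among themselves by 2.40, the widest spread in the list, and lay in no order of time. Azgp1, a secreted glycoprotein that promotes lipid mobilisation, had 7.11 on the control array and 5.12, 5.01, 4.61, 6.03, 5.20 and 4.71 on the toxin arrays. In both genes the second 48 h array was the highest of the 6.

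Pga5, a pepsinogen made by chief cells, had 8.23 on the control array and 5.87, 6.39, 7.09, 4.84, 4.92 and 6.04 on the toxin arrays. The arrays of a pair disagreed by 2.25 at 48 h and 1.12 at 72 h, so its time course cannot be read. Other chief cell products behaved differently: pepsinogen C (Pgc), at 13.37 on the control, was at 0.09, -0.19, -0.05, -0.01, -0.02 and -0.05, while Cblif, gastric intrinsic factor, was at -0.91, -1.84, -0.96, -0.86, -1.01 and -1.19. Of 19 measured chief cell genes, 9 (47.4%) lay below the control on all 6 toxin arrays, against 22.6% of all genes. Of the 9, 1, Pga5, met the rule.

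Proteases and their relatives included Tmprss9, a transmembrane serine protease, with 7.79 on the control array and 5.17, 5.52, 5.30, 5.31, 5.66 and 6.19 on the toxin arrays. Prss23, a secreted serine protease, had 10.24 on the control array and 8.02, 7.91, 7.87, 8.09, 8.09 and 8.44 on the toxin arrays, and its second probe set gave the same picture with a mean difference of -2.03 against -2.17. Furin, the convertase that cleaves proproteins in the Golgi, had 11.80 on the control array and 9.86, 9.82, 9.68, 10.27, 10.17 and 10.11 on the toxin arrays. All 6 toxin values of Furin lay between 9.68 and 10.27. Cpq, a carboxypeptidase, had a mean difference of -1.20.

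The list also held genes of some plasma proteins. Apoa4, an apolipoprotein of triglyceride-rich particles, had 9.30 on the control array and 6.60, 7.11, 6.76, 7.10, 7.27 and 7.79 on the toxin arrays. Ttr, transthyretin, which carries thyroid hormone, was at -1.35, -2.05, -1.86, -1.38, -1.32 and -1.38 from the control, and Dio1, the deiodinase that makes active thyroid hormone, at -1.52, -1.95, -2.11, -1.95, -1.89 and -1.996. C4bp, an inhibitor of complement, was at -1.999, -2.28, -2.19, -2.04, -2.09 and -1.95. Its toxin values, 4.35 to 4.68, lay in the dim part of the array. Among signals to other cells, the chemokine Cxcl12 was at -1.23, -1.33, -1.38, -1.42, -1.41 and -1.37, and Ccl11, the eosinophil attractant eotaxin, at -1.39, -1.72, -1.60, -1.39, -1.25 and -1.40. Both chemokines thus varied by less than 0.5 over the toxin arrays. Nucb2, the precursor of nesfatin, had a mean difference of -1.57, the hormone gene Stc1 of -1.35 and Amh, anti-Müllerian hormone, of -1.55. Esm1, a proteoglycan secreted by endothelial cells, had 6.26 on the control array and 4.74, 4.70, 4.75, 4.87, 5.23 and 4.90 on the toxin arrays. Cd300lg, a receptor on capillary endothelium, was at -1.68, -1.60, -1.37, -1.75, -1.14 and -1.37 from the control. Of 30 measured endothelial genes, 17 (56.7%), Esm1 among them by the rule, lay below the control on all 6 toxin arrays, against 22.6% of all genes. The 30 endothelial genes had a median mean difference of -0.28. Their part in the values of Esm1 and Cd300lg was not tested.

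**Figure D2:**
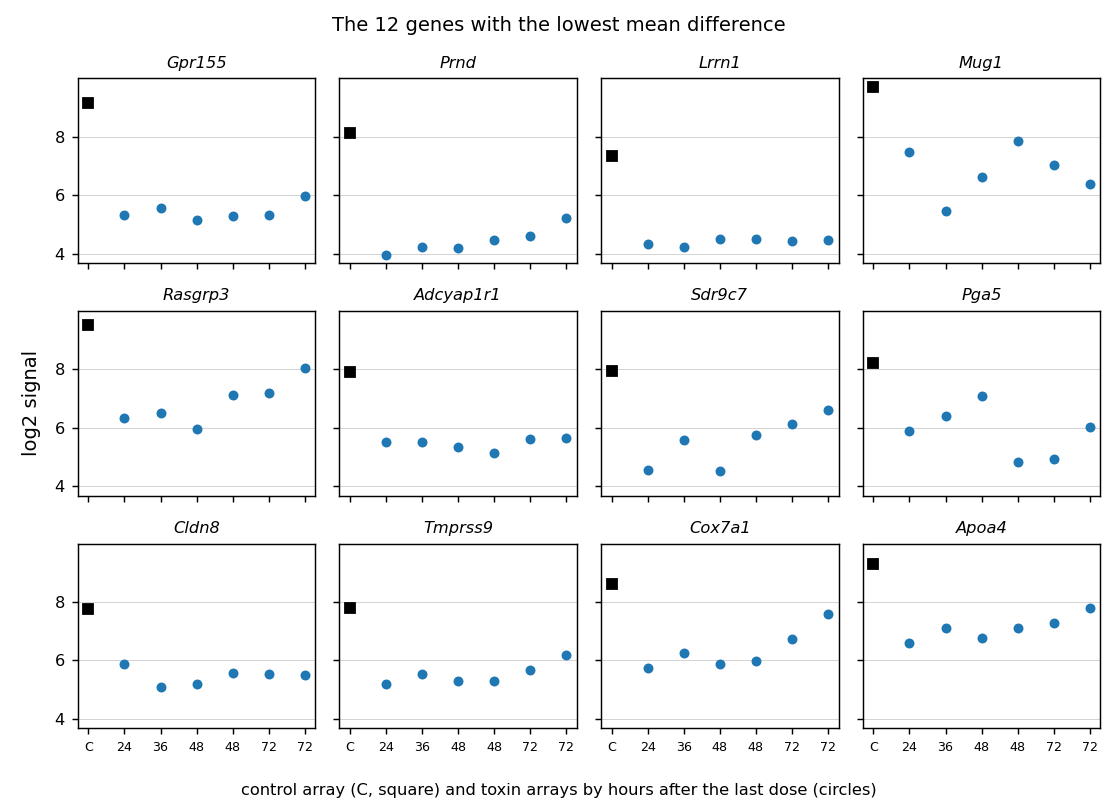
Log2 signal (vertical axis) of the 12 genes with the lowest mean difference, with the control array as a black square and the 6 toxin arrays as blue circles in order of hours after the last dose. Lrrn1 and Adcyap1r1 stayed nearly level after toxin, Lrrn1 in the dim part of the array. Cox7a1 and Rasgrp3 lay nearest to the control on the second 72 h array, and Mug1 and Pga5 varied most between arrays.

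Channels, transporters and junction proteins numbered 7, with a median mean difference of -1.44. Cldn8, a claudin of tight junctions that limits sodium leak, had 7.77 on the control array and 5.86, 5.08, 5.20, 5.56, 5.54 and 5.50 on the toxin arrays. Scnn1a, the alpha subunit of the epithelial sodium channel, had 8.66 on the control array and 7.33, 7.496, 7.65, 7.20, 7.55 and 7.55 on the toxin arrays. Slc2a4, the insulin-responsive glucose transporter GLUT4, had 7.35 on the control array and 5.67, 6.09, 5.92, 5.74, 5.89 and 6.18 on the toxin arrays. The toxin arrays spanned 0.45 in Scnn1a, 0.51 in Slc2a4 and 0.77 in Cldn8. Slc2a12, another glucose transporter, had a mean difference of -1.43. Slc5a8, which takes up short-chain monocarboxylates with sodium, was at -1.25, -1.90, -1.74, -1.56, -1.68 and -1.57. Kcne1, a regulatory subunit of potassium channels, was at -1.56, -1.48, -1.33, -1.33, -1.33 and -1.16, and Atp13a4, a P-type ATPase, had a mean difference of -1.68. Of 361 solute carrier genes on the array, 5 met the threshold, of which 3 are in the list, where 0.537% of all genes met it. Of the 361, 31.9% lay below the control on all 6 toxin arrays, against 22.6% of all genes.

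Mitochondrial and other enzymes made up 20 genes. Cox7a1, the muscle-type isoform of a subunit of cytochrome c oxidase, had 8.61 on the control array and 5.72, 6.25, 5.89, 5.98, 6.71 and 7.58 on the toxin arrays. Adhfe1, a mitochondrial hydroxyacid-oxoacid transhydrogenase, had 7.93 on the control array and 5.37, 5.93, 5.79, 5.59, 6.30 and 6.64 on the toxin arrays. Both were higher on the 2 arrays of 72 h than on any earlier toxin array. Sdr9c7, a short-chain dehydrogenase, had 7.94 on the control array and 4.54, 5.58, 4.51, 5.75, 6.13 and 6.62 on the toxin arrays, with the lowest values at 24 h and on the first 48 h array. Aldh1l2, a mitochondrial folate enzyme, had a mean difference of -1.503, Ddo, D-aspartate oxidase, of -1.47, and Prps2, which makes the nucleotide precursor PRPP, of -1.63. Cyp4v3 and Cyp2u1, cytochromes P450 that hydroxylate fatty acids, were at -1.77 and -1.69 in the mean. Ero1b, which drives disulphide formation in the endoplasmic reticulum, was at -1.45, -1.99, -1.58, -1.41, -1.23 and -1.43.

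Acadsb and Ivd, the mitochondrial dehydrogenases that oxidise intermediates of isoleucine and of leucine, were both in the list. Acadsb had 9.79 on the control array and 7.004, 7.52, 7.44, 7.65, 7.76 and 8.49 on the toxin arrays. Ivd had 8.58 on the control array and 6.95, 7.24, 7.07, 7.06, 7.43 and 7.57 on the toxin arrays. Both were lowest at 24 h and highest on the second 72 h array. The rest of the pathway of branched-chain amino acid breakdown was therefore looked at, as a list of 24 genes put together after these values were seen. Of the 21 measured genes beside Acadsb and Ivd, 19 (90.5%) lay below the control on all 6 toxin arrays, against 22.6% of all genes. By array, in the usual order, the median differences of these 21 were -1.12, -0.87, -1.16, -0.87, -0.65 and -0.41.

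Only Acadsb and Ivd met the rule, and 6 more genes of the pathway lay at least 1 below the control on 5 of the 6 toxin arrays. Mccc1, a subunit of the carboxylase of leucine breakdown, was at -2.56, -2.001, -2.03, -1.85, -1.82 and -0.96. Bckdhb and Dbt, subunits of the branched-chain ketoacid dehydrogenase, were at -1.54, -1.58, -1.42, -1.49, -1.18 and -0.95 and at -2.03, -1.25, -1.72, -1.35, -1.02 and -0.65. Aldh6a1, which acts in valine breakdown, was at -1.90, -1.72, -1.72, -1.49, -1.13 and -0.74. In these 4 genes the second 72 h array was the one above -1. The 2 genes not below on all arrays were the transaminases: Bcat2, the mitochondrial form, was at -0.66, -0.26, -0.60, -0.61, -0.18 and 0.03, and Bcat1, the cytosolic form, at -0.13, 0.00, 0.00, 0.00, 0.25 and 0.00. Apart from Acadsb and Ivd, 18 of 21 genes were higher on both 72 h arrays than at 24 h and 36 h, where 15.6% of all genes were.

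**Figure D3:**
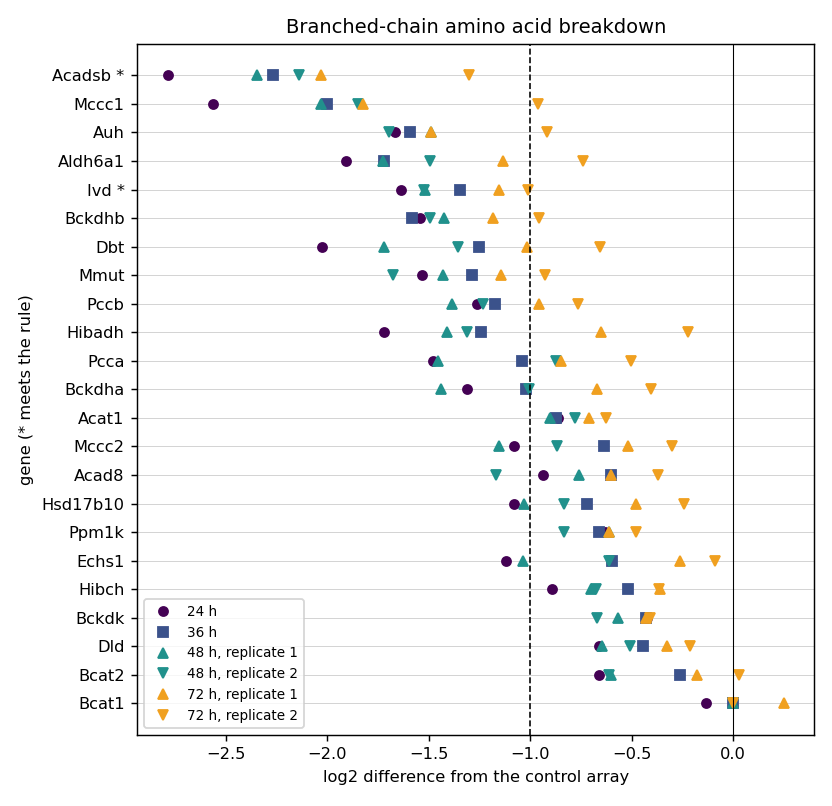
Log2 difference from the control array (horizontal axis) of the 23 measured genes of branched-chain amino acid breakdown (rows), with 1 marker per toxin array; the dashed line is the threshold of -1. The 72 h arrays (orange) lie nearest to 0 in most genes, and only Acadsb and Ivd are at or below -1 on every array.

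Genes of the cell cycle, genome and RNA made up a group of 4. Cdkn1c, which codes for the cyclin-dependent kinase inhibitor p57, had 7.44 on the control array and 5.41, 5.19, 5.47, 5.04, 5.42 and 5.33 on the toxin arrays. Blm, the DNA helicase mutated in Bloom syndrome, had 8.26 on the control array and 6.999, 6.53, 6.62, 6.60, 6.39 and 6.24 on the toxin arrays. Its highest toxin value was at 24 h and its lowest on the second 72 h array. Both 72 h arrays lay below the 24 h and 36 h arrays in 5 of the 92 genes (5.43%), Blm among them, against 15.4% of all genes. They lay above them in 36 of the 92 (39.1%), against 15.6% of all genes. The 92 are not like all genes in level or spread. In 90 of them the control was above the median level of all genes, and their median range over the toxin arrays was 0.58 against 0.33. The 24 h array also differed from both 72 h arrays in sex pattern. Unlike Cdkn1c and Blm, all 15 measured genes of cell division lay above the control on all 6 toxin arrays, against 20.2% of all genes. Their median mean difference was 0.90. Dmbx1, a homeobox gene, had a mean difference of -1.61 from a control value of 6.08.

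Further genes among the 30 with the lowest means were Tmed6, a cargo receptor of the secretory pathway, at -1.64, -2.84, -1.96, -1.83, -1.59 and -1.90, and Pitpnc1, a phosphatidylinositol transfer protein, at -2.08, -2.01, -1.79, -2.11, -1.87 and -1.30. Necab1, a calcium-binding protein, was at -1.05, -2.38, -2.30, -1.57, -1.35 and -2.07, and Gpm6a, a membrane glycoprotein, at -1.56, -2.24, -1.81, -2.34, -1.55 and -1.01. The 2 differed in time: Necab1 was nearest to the control at 24 h and Gpm6a on the second 72 h array. Capn6, Narf, Ranbp3l, Zdhhc2, Rph3al and Car8 followed, with mean differences between -1.71 and -1.59. The smallest mean in the list was that of the sialyltransferase gene St3gal6, at -1.09.

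In 3 cases a pair lay side by side in gene order, with no other measured gene between them. These were Furin and Blm on chromosome 7, Enpp5 and Enpp4 on chromosome 17, and Necab1 and Tmem64 on chromosome 4. Enpp4 and Enpp5 are paralogs of a family of membrane phosphodiesterases. Enpp5 was at -1.48, -1.58, -1.23, -1.51, -1.71 and -1.45 and Enpp4 at -1.15, -1.36, -1.39, -1.36, -1.48 and -1.27, so the pair had similar sizes. Fes, a gene in the neighbourhood of Furin and Blm, was at 5.73 on the control and between 5.29 and 5.70 on the toxin arrays.

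Most genes of the parietal cell list did not stay low in this way. Of 42 measured genes of the parietal cell list, 26 (61.9%) lay below the control on all 6 toxin arrays, against 22.6% of all genes. Of the 26, only 2, Gpr155 and Slc2a4, met the rule. Median differences of the parietal list by array were -0.45, -0.38, -0.25, -0.36, -0.33 and -0.14. Slc4a2, the anion exchanger of the parietal cell base, was at -2.26, -1.31, -1.92, -1.35, -0.81 and -0.25, and Slc26a9, an apical anion transporter, at -1.92, -0.89, -1.21, -1.05, -0.86 and -0.12. The pump subunit Atp4b was at -2.25, -0.61, -1.27, -0.55, -0.28 and -0.02. These genes came within 0.25 of the control on the second 72 h array, where Gpr155 was still at -3.20. In all, 4 of the 92 genes were on any of the 24 lists of cell types and pathways (Gpr155, Slc2a4, Pga5 and Esm1) and 88 on none. The 20 named genes that met the threshold but were left out by the rule are on none of these lists. The counts for parietal, endothelial and other cell types therefore do not cover those genes. The 21 lists with no member had 0% to 62.5% of their genes below the control on all 6 toxin arrays, against 22.6% of all genes. The part of parietal, endothelial or other cell loss in the members' values was not tested.

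Change with time among the toxin arrays does not use the control and was tested. For every gene limma estimated the change in log2 signal per 24 h across the 6 toxin arrays, with 4 residual degrees of freedom. At a Benjamini-Hochberg adjusted p under 0.05 limma called 0 of the 92 genes and 0 of all 22180 (0%), and the smallest adjusted p among the 92 was 0.440. At an unadjusted p under 0.05 there were 19 of the 92 (20.7%), 18 with a positive and 1 with a negative slope. Over all genes 8.7% were at that level, 4.22% with a positive and 4.47% with a negative slope. The median slope of the 92 was 0.08, against 0.0021 over all genes, and 63 of 92 slopes (68.5%) were positive, against 51.4% of all. The median slope of the members was 0.16 without the 24 h array, the only toxin array with the sex pattern of the control, 0.04 without the 36 h array and 0.05 without the second 72 h array. The rule sets an upper bound on every toxin value, so it also keeps out genes that came back to within 1 of the control.

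The steepest positive slopes were those of Sdr9c7 at 0.83 ± 0.27 log2 per 24 h (± standard error), Cox7a1 at 0.71 ± 0.21, Rasgrp3 at 0.69 ± 0.26, Acadsb at 0.52 ± 0.14 and Adhfe1 at 0.51 ± 0.12. In limma their unadjusted p ran from 0.0059 to 0.037 and their adjusted p from 0.447 to 0.551. Each of these 5 genes was higher on both 72 h arrays than at 24 h and 36 h, as were 15.6% of all genes. They were picked by their slope over the same arrays, so this adds no support. The most negative slopes were those of Pga5 at -0.32 ± 0.43, Blm at -0.29 ± 0.07, Ly6c2 at -0.16 ± 0.08, Dio1 at -0.14 ± 0.09 and Cyp4v3 at -0.10 ± 0.11. Of these 5, Blm alone had an unadjusted p under 0.05 (0.0055, adjusted p 0.440 in limma). Ly6c2, a surface protein of monocytes, had 5.80 on the control array and 4.54, 4.42, 4.48, 4.37, 3.99 and 4.42 on the toxin arrays, and Cyp4v3 had 8.95 on the control array and 7.52, 6.92, 7.07, 7.35, 7.21 and 7.02 on the toxin arrays. Without the 24 h array the slopes of Dio1 and Cyp4v3 turned positive, at 0.030 and 0.055.

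**Figure D4:**
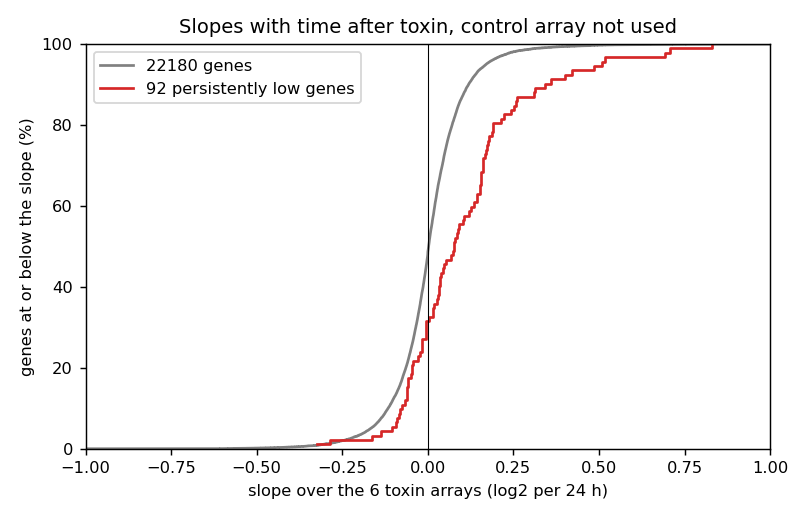
Cumulative share of genes (vertical axis, percent) at or below a given slope over the 6 toxin arrays (horizontal axis, log2 per 24 h, drawn from -1 to 1), for the 92 persistently low genes in red and all 22180 genes in grey. The red curve lies to the right of the grey one over most of the range, with medians of 0.08 and 0.0021.

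The comparison of 72 h with 48 h, with 2 arrays on each side, asked whether the genes moved during the last day. Limma called 0 of the 92 and 0 of 22180 genes (0%) at an adjusted p under 0.05. At an unadjusted p under 0.05 there were 9 of the 92 (9.78%), 6 higher and 3 lower at 72 h. Over all genes 7.07% were at that level, 4.27% higher and 2.8% lower. The median difference was 0.12 over the 92 and 0.0036 over all genes. Both 72 h arrays lay above both 48 h arrays in 30 of the 92 genes (32.6%), against 16.7% of all genes, and below them in 7 (7.61%), against 13%. The 92 also varied more over the toxin arrays than all genes, with a median range of 0.58 against 0.33. The largest differences were those of Sdr9c7 at 1.25 ± 0.53 and Cox7a1 at 1.21 ± 0.35, and the lowest was that of Mug1 at -0.53 ± 0.55 (± standard error of the limma fit, n = 2 arrays each). For Sdr9c7 and Cox7a1 the arrays of the 2 times did not overlap, and for Mug1 they did. The 3 genes were picked by this difference over the same arrays, so the overlap adds no support. The titles at 72 h add a letter, A or B, that no label explains, and the labels call samples of a time independent without saying more, so these p-values measure the spread between these samples.

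The threshold itself cuts through a continuous range of values. Just inside it were Megf9 at -1.009, Gpm6a at -1.010, Ivd at -1.011, Scnn1a at -1.013 and Chst3 at -1.020 on their highest toxin array. Just outside were Pls3 at -0.999, St3gal1 at -0.997, Adk at -0.995, Mblac2 at -0.994 and Hint3 at -0.990. Mean differences of the 5 genes outside ran from -1.24 to -1.14, within the range of those in the list.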

How the data were processed

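Total RNA of snap-frozen corpus tissue was measured on 7 arrays, 1 per sample. The deposited log2 signal of 41345 probe sets was made by the authors with RMA and Partek software, as the submitters' processing notes list. The sources used here name no version for either. Values were used as deposited, and columns of other samples number 0. Array medians ran from 4.56 to 4.71. Arrays have no read depth, and their number limits the precision.

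Platform annotation gave 23521 probe sets 1 gene, 1814 several and 16010 none. Each gene was represented by its brightest probe set on average (22180 genes). All 92 members were found by Entrez identifier in the gene table of GRCm38.p6, used for names and gene order only. The members, gene lists, motifs and tests were chosen with earlier results of these data known, and the branched-chain and secretory control lists after the members' values were seen.

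Slopes over the toxin arrays and 72 h against 48 h came from two-sided limma fits (version 3.58.1 under R 4.3.3) with Benjamini-Hochberg adjustment over all genes, and the script was tested on simulated data. The 72 h against 48 h fit used all 7 arrays and had 2 residual degrees of freedom. Values on every array are given for the 12 members with the lowest mean, the 5 steepest slopes each way, the 5 genes on each side of the threshold (as their highest array) and members on the parietal or endothelial lists. The 30 lowest means and all list members are named. Other members were named after their values were seen. Alternatives were other scalings, probe set rules, thresholds, filters and left-out arrays.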

Additional observations from a re-analysis of the deposited data

How the results depend on the processing

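The number of members was 92 with the mean of all probe sets, 85 with quantile normalisation again (82 shared), 116 with array medians subtracted and 69 without dim genes. A threshold of 0.8 gave 179 genes and one of 1.5 gave 21. Leaving out 1 toxin array gave 93 to 143 genes, the most without the second 72 h array. Limma called 0 members in the trend and at 72 h against 48 h in every alternative run, including each left-out array. Members at an unadjusted p under 0.05 then ranged from 12 to 24 in the trend and from 6 to 16 at 72 h against 48 h. With the replicate block, 0 members were called at 72 h against 48 h and 15 had an unadjusted p under 0.05; the replicate differences at 48 h and 72 h had a correlation of -0.13 across genes, so the numbers were not taken as pairs. A block with crossed numbers, added after seeing the data, also called 0, with 12 at an unadjusted p under 0.05. Among the named slopes, Dio1 ranged from -0.21 to 0.030 and Cyp4v3 from -0.19 to 0.055 when 1 toxin array was left out, and both turned positive only without the 24 h array. Mean differences kept their sign in all members under every scaling, probe set rule and left-out array. They moved by over 1.5 times in Gpr155 (-1.38) and Prnd (-1.79) alone, with the mean of all probe sets. With Acadsb and Ivd included, the count of 21 branched-chain genes below the control on all toxin arrays was 21 or 22 in the alternatives added after seeing the data.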

Other observations

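Probe sets that carry no single gene were outside the report. Of 17824 such probe sets, 23 (0.129%) lay at least 1 below the control on all 6 toxin arrays, against 0.537% of the genes.

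Lists of other cell types and pathways held no member but were not all level. Of 12 measured fibroblast genes, 7 (58.3%) lay below the control on all 6 toxin arrays, against 22.6% of all genes, with a median mean difference of -0.40. Of 16 genes of the unfolded protein response 10 (62.5%) did, with a median of -0.27 and the lowest array median at 36 h, -0.57. Of 20 genes of mitochondrial fatty acid oxidation and uncoupling 11 (55%) did, with a median of -0.28. The 13 interferon response genes had a median of 1.04, and 9 of them lay above the control on all 6, as did 20.2% of all genes.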
